A study of Homo sapiens with 4 samples.

Results

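The lysosomal genes described here are those of the proton pump (V-ATPase), the cathepsins, the other lysosomal hydrolases with their activator proteins, and a set of lysosomal membrane proteins with TFEB, a transcription factor of lysosome formation. Members were taken by gene symbol, as those of the array annotation that begin with ATP6V or ATP6AP, those of the cathepsin form CTS with a letter, and 32 listed genes, all of which were found. Pump subunits under other symbols are not members, so V1 and V0 counts below cover the ATP6V symbols only. This gave 66 of the 12165 genes measured, namely 19 of the V-ATPase, 15 cathepsins, 23 other hydrolases and activators, and 9 membrane proteins and regulators. The last class, also called membrane genes below, includes the soluble cholesterol carrier NPC2. The cells were Huh-7, a human hepatocellular carcinoma line, grown in medium with 10% serum. The groups were 2 arrays of untreated cells and 2 arrays of cells collected 48 h after transforming growth factor beta (TGF-beta) was added. No source used here gives the TGF-beta dose, a single line stands for hepatocellular carcinoma, and the labels do not say that arrays 1 and 2 of a group came from separate cultures. The p-values therefore measure only the spread between these arrays, which may be technical.

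The lysosome is the acidic compartment in which cells break down proteins, glycans and lipids delivered by endocytosis and autophagy. Its acidity is made by the V-ATPase, a rotary pump whose cytosolic V1 sector hydrolyses ATP and whose membrane V0 sector carries protons, and V1 can detach from V0 and bind again. Many lysosomal genes share a promoter element with the E-box core CACGTG, which TFEB and its relatives TFE3 and MITF bind. Hepatocytes, which recycle much protein and lipid, rely on this compartment for turnover.

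Each value is the linear intensity of a probe set, and a log2 fold change is the TGF-beta mean minus the untreated mean of log2 intensity. Probe sets differ in how well they bind, so intensities are compared between arrays and not between genes. The array medians lay between 50.1 and 51.0. All 10 hepatocyte markers listed for the check, among them ALB and APOA1, were at 1088 or above on every array, as fits the labelled cell type. Of these 10, APOA1 (an apolipoprotein) rose by 0.74 on the log2 scale (adjusted p = 0.0378), TTR (transthyretin) fell by 0.63 (adjusted p = 0.0470) and 8 did not pass. Their summed level was 103835 and 105911 on the untreated arrays and 116421 and 113336 on the TGF-beta arrays. Of 7 measured markers of macrophages and other leukocytes, cells rich in lysosomes, 6 stayed under 100 on every array, and PTPRC, the pan-leukocyte phosphatase, read 28.3 to 31.7, near the arrays' lower quartile of 28.8 to 29.2. The exception was CD14 (a co-receptor for bacterial lipopolysaccharide), which rose from 75.6 and 75.4 to 146 and 157 with an adjusted p of 0.0167. The summed level of these 7 markers was 256 and 260 on the untreated arrays and 325 and 342 on the TGF-beta arrays. Of 7 fibroblast and stellate cell markers 0 were called and 6 stayed under 100, 2 of them, COL1A1 (-0.44) and DCN (-0.53), with an unadjusted p under 0.05. The exception in level was LUM, a matrix proteoglycan, at 6692 to 7292. The sum of this list was 7479 and 6956 untreated and 7021 and 7528 after TGF-beta. All 5 endothelial markers stayed under 100 and 0 were called (1, PECAM1 at -0.34, with an unadjusted p under 0.05), and they summed to 167 and 166 untreated and 162 and 155 after TGF-beta. The part of these markers in the results below was not tested.

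After TGF-beta 1 of the 66 genes, the aspartic protease gene CTSE, was called changed at an adjusted p under 0.05 (limma over all genes), and 65 did not pass. The called share was 1.52%, near the 1.22% of all genes called, so the count of calls is not a result about these genes. The count also depended on the arrays and the fit, as did the count over all genes. Under quantile normalization 0 members and 63 of all 12165 genes were called. A limma fit whose prior variance followed intensity called 9 members and 616 of all genes. With 1 array left out, the median log2 fold change of the members ran from 0.011 to 0.065.

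Below that threshold the members lay wider than genes at large. At an unadjusted p under 0.05 there were 25 of 66 (37.9%), 13 higher and 12 lower, where all genes gave 18%. The groups' arrays did not overlap in 39 members, 23 higher and 16 lower, which is 59.1% where all genes gave 49.1%. The median absolute log2 fold change was 0.23 in the members and 0.13 over all genes, while the signed medians were 0.05 and -0.01. A list of 26 measured lysosomal genes outside the members, described below, gave 5 (19.2%) at an unadjusted p under 0.05. Its median absolute log2 fold change was 0.12, so the wider spread was seen in the members and not in that list. Members were brighter: 49 of 66 lay above the median brightness, against 6083 of all 12165 genes, and folds of dim genes can be understated. Among genes above the lower quartile of brightness, 21 of 62 members and 1907 of 9123 genes had an unadjusted p under 0.05. Members were not compared with genes of matched brightness, so the part of brightness in the wider spread was not tested. Members lay on both sides of 0, so the signed median of the whole set was close to that of all genes. In bulk RNA, fewer transcripts per cell and fewer cells that hold the transcript cannot be told apart.

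**Figure D1:**
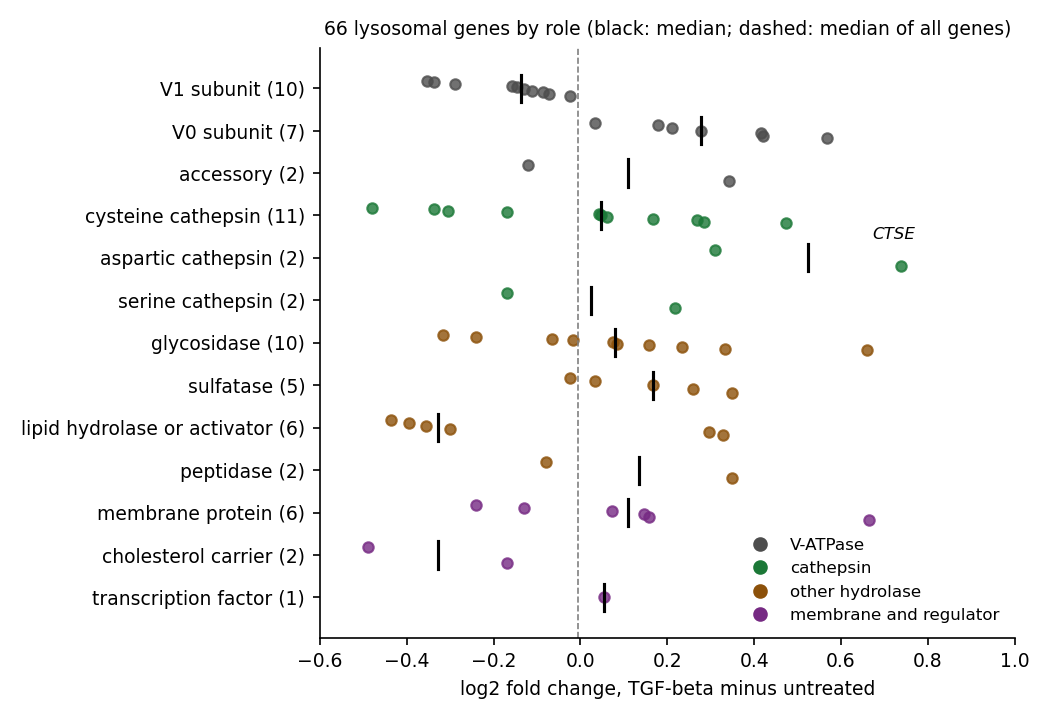
Log2 fold change (TGF-beta minus untreated, x axis) of the 66 lysosomal genes, 1 point a gene, in rows by role with the number of genes in parentheses; black bars are medians and the dashed line is the median of all genes. All 10 V1 subunits lie below 0 and all 7 V0 subunits above it, and CTSE is the only gene called.

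Many of these genes are known to share the E-box element, so the promoters were searched for its letters. RefSeq promoters (GRCh38.p14, 250 bases before to 50 bases after the first start listed) were found for 47 of the 66 members. The E-box core CACGTG, whose letters read the same on both strands, was in 14 of these 47 (29.8%) and in 9.43% of promoters of all measured genes. The core with T before and A after it, TCACGTGA, was in 8 members (17%) and in 1.7% of measured genes. The full palindrome of 10 letters, which is TCACGTGA with a further G before and C after it and so contains both shorter forms, was in 4 members (8.51%) and in 0.7% of measured genes. In all there were 26 matches of the core in the members, 18 of them within 100 bases before the start. The stretches below show the 4 members with the full palindrome, examples from the pump (ATP6V0D1, ATP6V0B) and the cathepsins (CTSA, CTSD), the repeats of LAMP1, and NEU1, with the matched letters in capitals.
MCOLN1: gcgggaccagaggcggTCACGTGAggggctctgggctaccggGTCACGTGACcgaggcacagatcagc
GAA: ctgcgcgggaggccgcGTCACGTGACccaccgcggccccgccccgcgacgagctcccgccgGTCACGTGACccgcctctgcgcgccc
GALNS: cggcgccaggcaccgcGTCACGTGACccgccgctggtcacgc
ATP6V1G1: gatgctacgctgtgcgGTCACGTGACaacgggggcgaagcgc
ATP6V0D1: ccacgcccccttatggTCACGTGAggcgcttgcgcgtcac
ATP6V0B: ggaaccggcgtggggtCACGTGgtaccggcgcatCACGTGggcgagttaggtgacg
CTSA: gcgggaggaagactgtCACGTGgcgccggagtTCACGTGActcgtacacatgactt
CTSD: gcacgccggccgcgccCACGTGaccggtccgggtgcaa
LAMP1: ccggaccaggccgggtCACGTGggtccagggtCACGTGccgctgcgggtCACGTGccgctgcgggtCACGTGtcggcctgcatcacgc
NEU1: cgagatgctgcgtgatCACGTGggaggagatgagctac
In GRCh38.p14 these stretches are promoter sequence of the named gene. MCOLN1 is at chr19:7522566-7522633 on the plus strand, GAA at chr17:80101487-80101573 (plus) and GALNS at chr16:88857098-88857139 (minus). ATP6V1G1 is at chr9:114587693-114587734 (plus), ATP6V0D1 at chr16:67481194-67481233 (minus) and ATP6V0B at chr1:43974887-43974942 (plus). CTSA is at chr20:45891277-45891332 (plus), CTSD at chr11:1763953-1763990 (minus), LAMP1 at chr13:113297031-113297118 (plus) and NEU1 at chr6:31862926-31862963 (minus).

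Of the 14 members with the core, 12 had a log2 fold change above 0 and 2, NEU1 (-0.02) and ATP6V1G1 (-0.11), lay below it. These are signs only, and the arrays overlapped between groups for ATP6V0E2, LAMP1, CLN3, CD63 and NEU1. The other probe set of CLN3 gave -0.07, and the other 3 of LAMP1 gave -0.20 to 0.20. Promoter entries were found for 28 of 36 members above 0 and for 19 of 30 below it. Counted the other way, 12 of 28 members above 0 with a promoter entry held the core (42.9%), against 2 of 19 members below 0 (10.5%). Over all measured genes the shares were 9.86% above 0 and 9.03% below 0. With any listed start in place of the first, an alternative chosen after the values were seen, the members' counts were 12 of 28 and 3 of 19. None of the 14 genes was called in the fit, the share was not tested, and a match in letters does not show that a factor was bound. Promoters of members above 0 had a median GC content of 67.8% and those below 0 of 63.7%, against 65.0% and 62.7% over all measured genes.

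**Figure D2:**
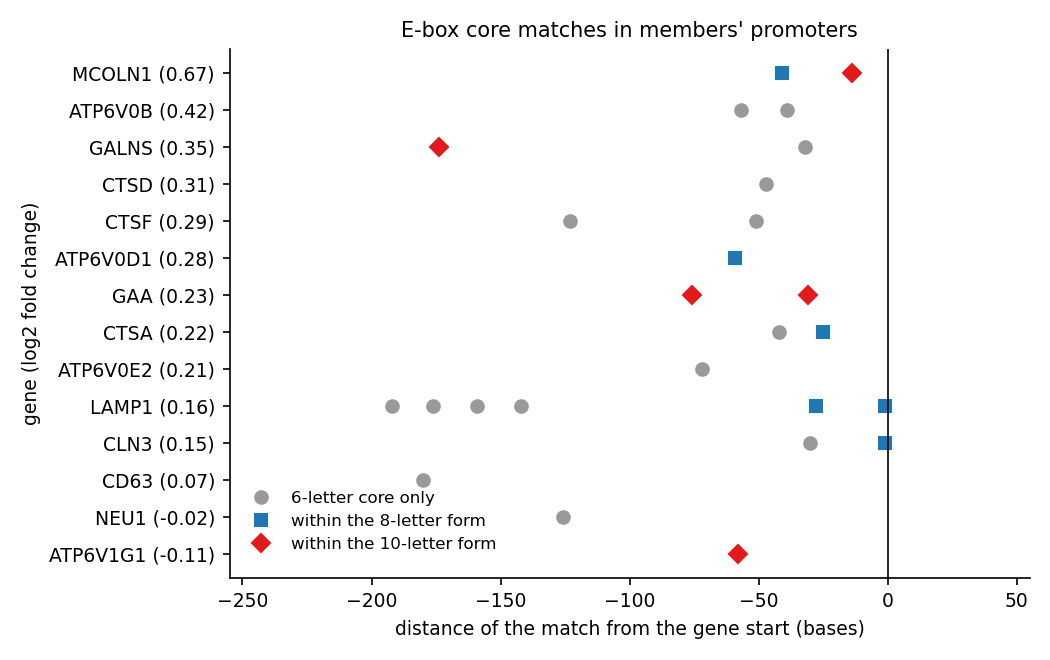
Matches of CACGTG in the promoters of the 14 members that hold it, by distance from the first listed gene start (x axis, bases), with members ordered by log2 fold change (in parentheses) and symbols for the longest form each match belongs to. Of 26 matches 18 lie within 100 bases before the start, and 12 of the 14 genes have a log2 fold change above 0.

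The V-ATPase had 0 calls among 19 genes (8 at an unadjusted p under 0.05, where all genes gave 18%), and its sectors lay on opposite sides of 0. All 10 V1 subunits had lower means after TGF-beta, with log2 fold changes from -0.35 to -0.02 and a median of -0.14, where 51.4% of all genes lay below 0. All 7 V0 subunits had higher means, from 0.03 to 0.57 with a median of 0.28, where 48.6% of all genes lay above 0. The arrays did not overlap for 6 of the 10 V1 genes, all lower (25.9% of all genes), and for 5 of the 7 V0 genes, all higher (23.3% of all genes). At an unadjusted p under 0.05, 3 V1 genes were lower and 0 higher (8.6% and 9.35% of all genes), and 4 V0 genes were higher and 0 lower. The signs of all 17 genes were kept under median centring, quantile normalization and the mean of all probe sets. Without untreated array 1, untreated array 2 or TGF-beta array 2, 9 of 10 V1 genes were below 0, and without untreated array 2 or TGF-beta array 2, 6 of 7 V0 genes were above it.

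**Figure D3:**
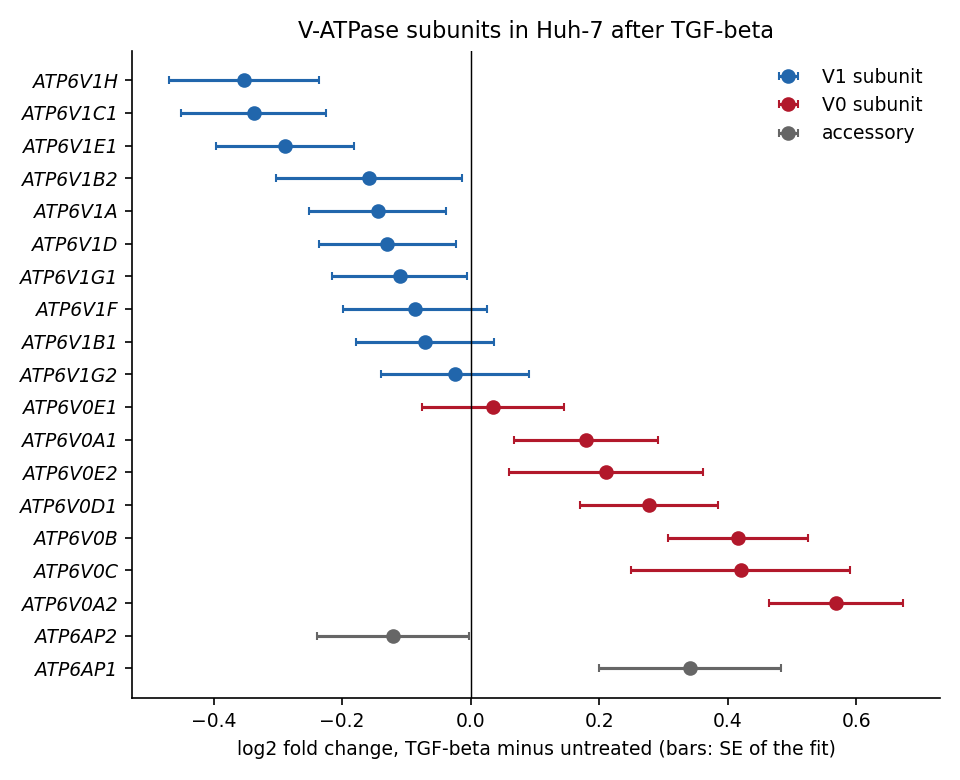
Log2 fold change of each V-ATPase gene (x axis, TGF-beta minus untreated; bars are the standard error of the limma fit, 2 arrays a group), grouped as V1, V0 and accessory genes. V1 genes run from -0.35 to -0.02 and V0 genes from 0.03 to 0.57.

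Averaged over each sector, with each gene centred on its own mean over the 4 arrays, V1 stood at 0.10 and 0.07 on the untreated arrays and at -0.12 and -0.05 after TGF-beta. The corresponding V0 means were -0.10 and -0.20 on the untreated arrays and 0.18 and 0.12 after TGF-beta. Both TGF-beta arrays thus lay below both untreated arrays for V1 and above them for V0. The sector means average the same values whose signs are given above, so they are not added evidence. Over all genes the corresponding means stayed between -0.0035 and 0.0025. A mean over so many genes does not show how far a mean of a few genes drifts, which was not tested. The sulfatases separated too, at -0.07 and -0.09 untreated and 0.09 and 0.07 after TGF-beta. The cysteine cathepsins overlapped, at -0.03 and 0.03 untreated and 0.02 and -0.02 after TGF-beta. Brightness moved with the sign to a small degree. Among genes with a mean intensity of 468 or above, 57.3% lay below 0 with a median of -0.04, and these held 7 V1 genes, all below 0, and 4 V0 genes, all above it.

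**Figure D4:**
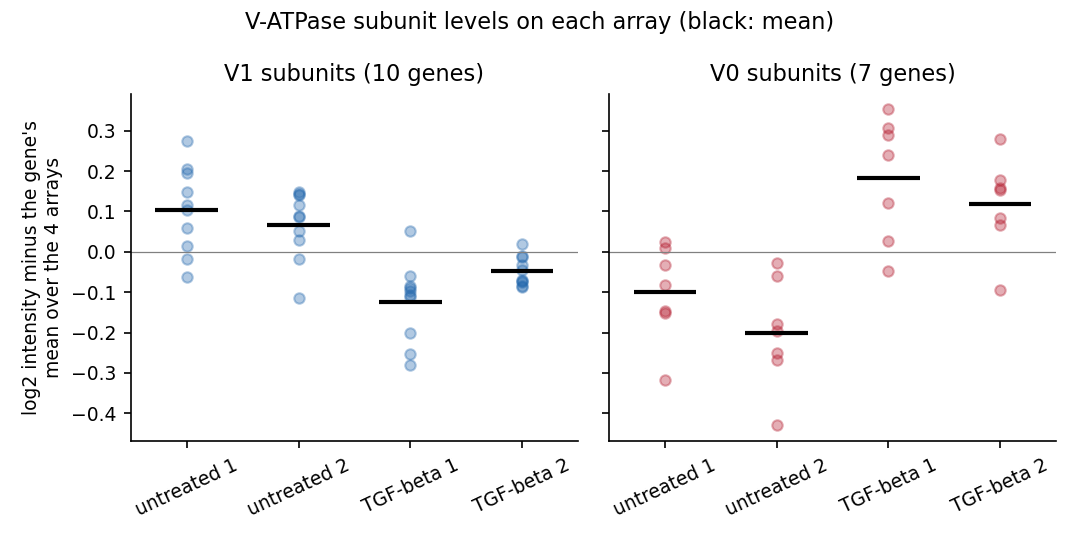
Log2 intensity of each V1 gene (left, 10 genes) and V0 gene (right, 7 genes) on each of the 4 arrays, after subtracting the gene's mean over the arrays (y axis); black bars are means over genes. V1 means are 0.10, 0.07, -0.12 and -0.05 and V0 means are -0.10, -0.20, 0.18 and 0.12, in the order of the arrays shown.

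Among V1 genes, ATP6V1H, a regulatory subunit of the sector, read 375 and 361 untreated and 268 and 309 after TGF-beta. Its log2 fold change was -0.35 ± 0.12 (SE, n = 2 per group, adjusted p = 0.175). ATP6V1C1, the subunit that links the stator stalks, read 1433 and 1382 untreated and 1051 and 1180 after TGF-beta, at -0.34 ± 0.11 (adjusted p = 0.178). Its other 2 probe sets gave -0.31 and -0.14. ATP6V1E1, a stator stalk subunit, was bright and close between replicates, at 9111 and 9056 untreated and 7148 and 7733 after TGF-beta (-0.29 ± 0.11, adjusted p = 0.219). For these 3 genes each TGF-beta array lay below each untreated array, and none passed the threshold.

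ATP6V1A, the catalytic subunit, read 6282 and 5921 untreated and 5362 and 5673 after TGF-beta, a log2 fold change of -0.14 ± 0.11. ATP6V1G1, a stalk subunit whose promoter holds the full palindrome shown above, read 4886 and 4861 untreated and 4381 and 4649 after TGF-beta (-0.11 ± 0.11). These are small differences, with arrays that did not overlap, as also for ATP6V1D (the central rotor shaft) at -0.13. ATP6V1B2, the B subunit found in most tissues, overlapped between groups, with untreated array 1 (1705) above untreated array 2 (1302) and the TGF-beta arrays (1325 and 1345). ATP6V1F overlapped too, at -0.09. ATP6V1B1, the B subunit of kidney and inner ear, and ATP6V1G2, a neuronal stalk subunit, read under 30 on every array, so their values of -0.07 and -0.02 carry little information. Counted over probe sets in place of genes, 15 of 15 V1 probe sets lay below 0. Probe sets of a gene share its transcripts and are not independent.

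Among V0 genes, ATP6V0A2, an a-subunit isoform of the Golgi and endosomes, had the largest value. It read 70.2 and 73.4 untreated and 107 and 106 after TGF-beta, which is 1.48-fold with a log2 fold change of 0.57 ± 0.10 (SE, 95% interval 0.33 to 0.81, adjusted p = 0.0541). Its other 2 probe sets read under 28 on every array and gave 0.05 and -0.19, so the value rests on a single probe set. ATP6V0B, a proteolipid of the proton-carrying ring, read 1472 and 1354 untreated and 1924 and 1843 after TGF-beta, at 0.42 ± 0.11 (adjusted p = 0.105). Its promoter holds a pair of E-box cores, shown above.

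ATP6V0C, the main ring proteolipid, read 1292 and 954 untreated and 1640 and 1345 after TGF-beta. The difference was 0.42 ± 0.17 (adjusted p = 0.257), with replicates as far apart as 954 and 1292, and its other probe set gave 0.23. ATP6V0D1, which couples the ring to the rotor shaft, read 738 and 682 untreated and 849 and 872 after TGF-beta (0.28 ± 0.11, adjusted p = 0.237). Both genes thus had every TGF-beta array above every untreated array without passing the test. ATP6V0A1, the most widespread a subunit, stood at 0.18 and did not overlap. ATP6V0E1 and ATP6V0E2, small membrane subunits, overlapped between groups at 0.03 and 0.21. Over probe sets, 14 of 16 V0 probe sets lay above 0. The exceptions were a dim probe set of ATP6V0A2 and 1 of 6 of ATP6V0E1. TCIRG1, the a3 subunit, which falls outside the symbol rule and was looked up after the values were seen, stood at 0.76 ± 0.19 (adjusted p = 0.0984).

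The accessory genes differed in sign. ATP6AP1, needed to assemble V0 in the endoplasmic reticulum, read 492 and 384 untreated and 528 and 573 after TGF-beta (0.34 ± 0.14, adjusted p = 0.267). ATP6AP2, the prorenin receptor, which also binds V0, read 2966 and 3416 untreated and 2829 and 3027 after TGF-beta. Its value of -0.12 ± 0.12 came from arrays that overlapped, and all 3 of its probe sets lay below 0.

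Among cathepsins 1 of 15 rose, 0 fell and 14 did not pass, where 1.22% of all genes were called. At an unadjusted p under 0.05 there were 6 cathepsins, 3 in each direction, where all genes gave 18%. Their median log2 fold change was 0.06, with 10 above 0 and 5 below. CTSE, an aspartic protease of endosomes best known from stomach and immune cells, read 59.2 and 57.7 untreated and 94.2 and 101 after TGF-beta. That is a rise of 1.67-fold, or 0.74 ± 0.11 on the log2 scale (SE, 95% interval 0.49 to 0.99, adjusted p = 0.0336). Replicates were close and the groups were well apart, but the level was near the middle of the range of all genes even after TGF-beta. CTSE has 1 probe set, of the kind that can match more than 1 transcript. The call was lost under quantile normalization (0.69, adjusted p = 0.0527), without TGF-beta array 1 (0.79, adjusted p = 0.277) and without TGF-beta array 2 (0.69, adjusted p = 0.225), while over the 11 alternatives that measured it the adjusted p ran from 2.95e-05 to 0.277.

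CTSD, the main aspartic protease of the lysosome, read 109 and 88.1 untreated and 123 and 120 after TGF-beta, at 0.31 ± 0.13 (adjusted p = 0.277). CTSH, an aminopeptidase of the cysteine class, read 865 and 931 untreated and 1333 and 1164 after TGF-beta. Its value of 0.47 ± 0.12 (1.39-fold, adjusted p = 0.0950) was the highest of the cysteine cathepsins. CTSB, an endopeptidase abundant in liver, read 847 and 914 untreated and 1171 and 961 after TGF-beta (0.27 ± 0.13, adjusted p = 0.332), and its other 3 probe sets gave 0.09 to 0.33. CTSA, the serine carboxypeptidase that protects beta-galactosidase and neuraminidase, read 644 and 674 untreated and 754 and 780 after TGF-beta (0.22 ± 0.10, adjusted p = 0.331). All 4 genes were higher on each TGF-beta array than on each untreated array, as were 23.3% of all genes. For CTSB this did not hold in the probe set at 0.09, which read 361 and 437 untreated and 385 and 466 after TGF-beta. Of the 15 cathepsins, arrays did not overlap in 7 that were higher and 3 that were lower (25.9% of all genes were lower). CTSD and CTSA are 2 of the 3 cathepsins whose promoters held the E-box core, the third being CTSF at 0.29.

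The related endopeptidases CTSV and CTSL lay on the other side. CTSV, close in sequence to CTSL, read 549 and 662 untreated and 461 and 405 after TGF-beta, at -0.48 ± 0.13 (adjusted p = 0.118). CTSL read 732 and 684 untreated and 613 and 512 after TGF-beta (-0.34 ± 0.13, adjusted p = 0.221). The suffix of the CTSL probe set marks sequence shared with other transcripts, so signals of the pair may not be fully separate. CTSO was the third cysteine cathepsin whose arrays did not overlap and lay lower, at -0.30, from a dim 70.8 and 73.1. CTSC, which activates serine proteases of immune cells, was bright at 2307 and 2426 untreated and 2375 and 2503 after TGF-beta. It stood at 0.04 ± 0.11, with a 95% interval of -0.21 to 0.29. CTSW and CTSG, proteases of lymphocytes and neutrophils, read 23.4 to 26.9 and 32.5 to 44.2 and overlapped between groups. CTSK, CTSS and CTSZ read under 64 on every array, with values from -0.17 to 0.17. The arrays of CTSS did not overlap and lay higher after TGF-beta, while those of CTSK and CTSZ overlapped. The other probe set of CTSZ gave 0.33 and that of CTSS 0.17.

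**Figure D5:**
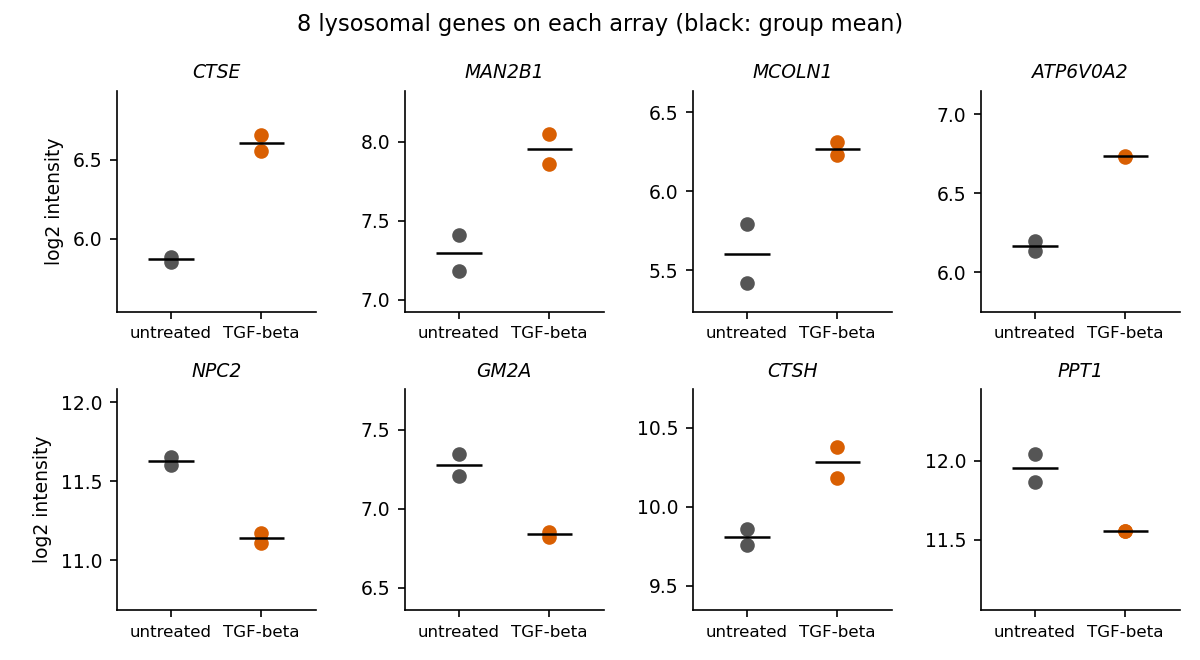
Log2 intensity of 8 lysosomal genes on each array (y axis; each panel spans 1.4 log2 units), untreated in grey and TGF-beta in orange, with black bars at group means of 2 arrays. CTSE, MAN2B1, MCOLN1, ATP6V0A2 and CTSH are higher and NPC2, GM2A and PPT1 lower on both TGF-beta arrays, and CTSE alone was called.

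The other hydrolases had 0 calls among 23 genes (4 higher and 5 lower had an unadjusted p under 0.05, against 9.35% and 8.6% of all genes), a median of 0.08 and values from -0.44 to 0.66. Of 6 lipid hydrolases and activators 4 lay below 0, where 51.4% of all genes did, and the median was -0.33. The arrays of these 4 did not overlap, as was so, in the lower direction, for 25.9% of all genes. PPT1, which removes fatty acids from proteins, read 4214 and 3725 untreated and 3011 and 3013 after TGF-beta, at -0.40 ± 0.11 (adjusted p = 0.124). ASAH1, acid ceramidase, read 4137 and 4247 untreated and 3286 and 3266 after TGF-beta, at -0.36 ± 0.10 (adjusted p = 0.130), and its other 3 probe sets gave -0.39 to -0.12. In both genes the gap between groups was larger than the gap between replicates.

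GM2A, the activator that presents ganglioside GM2 to hexosaminidase, read 148 and 163 untreated and 116 and 113 after TGF-beta. Its value was -0.44 ± 0.11 (adjusted p = 0.0972), and its other 5 probe sets gave -0.17 to -0.05. HEXA, a hexosaminidase subunit that works with this activator, read 682 and 624 untreated and 524 and 525 after TGF-beta (-0.32 ± 0.11, adjusted p = 0.189). The enzyme subunit and its activator were thus both lower on each TGF-beta array, and neither passed. LIPA, the acid lipase that frees cholesterol from its esters, stood at -0.30 (adjusted p = 0.268). PSAP, the precursor of the saposin activators, went the other way, at 2247 and 2594 untreated and 3145 and 2918 after TGF-beta (0.33 ± 0.12, adjusted p = 0.212). SMPD1, acid sphingomyelinase, stood at 0.30 with arrays that overlapped.

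Among 10 glycosidases 6 lay above 0 and 4 below, with a median of 0.08, where 48.6% of all genes lay above 0. MAN2B1, the acid alpha-mannosidase that trims N-glycans, read 170 and 145 untreated and 264 and 232 after TGF-beta. This is 1.58-fold, with a log2 fold change of 0.66 ± 0.13 (95% interval 0.36 to 0.96, adjusted p = 0.0558). GAA, acid alpha-glucosidase, which degrades glycogen and whose promoter holds the full palindrome at 2 places, was dim at 38.7 and 40.5 untreated and 47.4 and 45.7 after TGF-beta (0.23 ± 0.10, adjusted p = 0.301). GUSB, beta-glucuronidase, read 548 and 684 untreated and 835 and 712 after TGF-beta (0.33 ± 0.14, adjusted p = 0.285). Replicates of GUSB differed nearly as much as groups. GLA, GLB1, FUCA1, MANBA and NEU1, which remove terminal sugars from glycolipids and glycoproteins, overlapped between groups, with values from -0.24 to 0.09. NEU1, sialidase, had the smallest absolute log2 fold change of the 66 genes, at 532 and 503 untreated and 514 and 509 after TGF-beta (-0.02 ± 0.10, 95% interval -0.26 to 0.23).

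Sulfatases, which remove sulfate from glycosaminoglycans and sulfatides, had 4 of 5 values above 0 (48.6% of all genes) and a median of 0.17. GALNS, the sulfatase of keratan sulfate, read 138 and 129 untreated and 163 and 178 after TGF-beta (0.35 ± 0.11, adjusted p = 0.159), and its promoter stretch is shown above. IDS, iduronate sulfatase, read 99.5 and 111 untreated and 129 and 122 after TGF-beta (0.26 ± 0.11, adjusted p = 0.285). Its other 8 probe sets gave -0.27 to 0.08, and with the mean of all 9 its value turned to -0.03, so no direction is given for IDS, although it counts among the 4 above. ARSA, the sulfatase of sulfatides, stood at 0.17, while ARSB and SGSH overlapped at -0.02 and 0.03. ARSB read 27.5 to 30.6, near the lower quartile of the arrays.

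Of the peptidases outside the cathepsins, TPP1, a tripeptidyl peptidase, read 369 and 428 untreated and 562 and 456 after TGF-beta (0.35 ± 0.14, adjusted p = 0.255). Its second brightest probe set gave 0.44, and all 4 lay above 0. LGMN, an asparaginyl endopeptidase that processes cathepsins, stood at -0.08 with arrays that overlapped.

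The class of membrane proteins, cholesterol carriers and TFEB had 0 calls among 9 genes (2 at an unadjusted p under 0.05, 1 in each direction, where all genes gave 18%). The higher was MCOLN1, and the lower was NPC2, a soluble protein. LAMP1 and LAMP2, the abundant glycoproteins that line the membrane, lay on opposite sides of 0. LAMP1 read 2344 and 2142 untreated and 2720 and 2295 after TGF-beta, at 0.16 ± 0.13 (95% interval -0.14 to 0.45), with arrays that overlapped. LAMP2 read 1207 and 1181 untreated and 1136 and 1047 after TGF-beta, at -0.13 ± 0.11 (95% interval -0.38 to 0.12). Its TGF-beta arrays both lay below the untreated ones, and its other 2 probe sets gave -0.19 and -0.18. These sizes are close to the median absolute log2 fold change of all genes, 0.13, and neither gene passed. CD63, a tetraspanin of late endosomes, read 9095 and 7930 untreated and 9608 and 8290 after TGF-beta (0.07 ± 0.13). SCARB2, the receptor that carries glucocerebrosidase to the lysosome, had the largest standard error of the class, at 454 and 352 untreated and 284 and 402 after TGF-beta (-0.24 ± 0.19).

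MCOLN1, the calcium-releasing channel TRPML1, had the largest value of this class. It read 55.4 and 42.8 untreated and 79.4 and 75.1 after TGF-beta, which is 1.59-fold and 0.67 ± 0.14 on the log2 scale (adjusted p = 0.0687). It was dim, with untreated replicates that differed by more than the TGF-beta ones, and its promoter holds a full palindrome and a TCACGTGA, as shown above. CLN3, a membrane protein whose loss causes a storage disease of nerve cells, stood at 0.15 with arrays that overlapped.

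NPC2, the soluble protein that hands cholesterol to the membrane carrier NPC1, had the lowest value of all 66 genes. It read 3227 and 3111 untreated and 2306 and 2208 after TGF-beta, a log2 fold change of -0.49 ± 0.10 (95% interval -0.74 to -0.24, adjusted p = 0.0687). NPC2 was 1.40-fold higher in untreated cells, with close replicates in both groups. NPC1 read 286 and 383 untreated and 301 and 288 after TGF-beta, with a value of -0.17 ± 0.15 and untreated array 2 above the other arrays.

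TFEB itself was dim, at 41.1 and 39.5 untreated and 36.9 and 47.4 after TGF-beta (0.05 ± 0.14, 95% interval -0.27 to 0.38), and its other probe set gave -0.01. Of its 3 relatives, none of them members, 0 were called (1 at an unadjusted p under 0.05). TFE3 read 369 and 347 untreated and 646 and 520 after TGF-beta, at 0.70 ± 0.13 (SE, adjusted p = 0.0553). The TGF-beta arrays of TFE3 were both well above the untreated ones, and the value stayed just short of the threshold.

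Further lysosomal genes, listed by function, had 1 call among 26 measured of 40 listed. HYAL2, a hyaluronidase, rose from 78.4 and 77.3 to 115 and 130 (0.65 ± 0.11, adjusted p = 0.0485), 25 did not pass, and the list's median was 0.03, where 1.22% of all genes were called. Its unadjusted p was under 0.05 in 4 genes higher and 1 lower. The lower was GALC, at 1134 and 1187 untreated and 780 and 778 after TGF-beta (-0.57 ± 0.10, adjusted p = 0.0523). Unadjusted p-values under 0.05 in this list and those that follow compare with 9.35% of all genes higher and 8.6% lower. Genes that sort hydrolases to the lysosome had 0 calls among 11 (unadjusted p under 0.05 in 4 higher and 1 lower), and their median was 0.11. AP3D1, an adaptor subunit that carries membrane proteins to lysosomes, had the smallest p there, at 0.40 (adjusted p = 0.110). Tethering and fusion genes had 0 calls among 12 (unadjusted p under 0.05 in 1 higher and 3 lower), and their median was -0.10, with VPS8, a tether of early endosomes, at -0.47 (adjusted p = 0.0882). Genes of the mTORC1 kinase and its lysosomal anchor had 0 calls among 13 (2 at an unadjusted p under 0.05, both lower), 10 values below 0 (51.4% of all genes) and a median of -0.09. RRAGD, a Rag GTPase that recruits mTORC1 to the lysosome, read 228 and 285 untreated and 173 and 149 after TGF-beta (-0.67 ± 0.14, adjusted p = 0.0687).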

How the data were processed

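RNA of 4 Huh-7 samples was measured on Affymetrix arrays. The authors deposited linear intensities, a single value for each probe set on each array. The affy package is named in the submitters' processing notes, but no source used here states its settings. The array quartiles were nearly equal, so no further scaling was applied, and log2 was taken with no offset.

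Of 22215 probe sets, 19724 name 1 gene in the platform annotation, 568 several and 1923 none. Symbols were updated by Entrez number through RefSeq (GRCh38.p14). Each gene is its brightest probe set over the 4 arrays. Dim genes have little room to fall, so their folds can be understated. The number of arrays limits the precision.

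Groups were compared with limma 3.58.1 (R 4.3.3; lmFit, eBayes, 7.41 degrees of freedom), with Benjamini-Hochberg adjustment over 12165 genes and a call at an adjusted p under 0.05. No test was made over the list. The procedure was tested on simulated data. It recovered 12.7% of changes of 0.5 on the log2 scale and 92.4% of changes of 1. Not passing the threshold therefore does not show that a gene was unchanged. Members and lists were chosen with earlier results of these data known. Values are given for called members, the 3 smallest p of each role, the brightest and dimmest of each class and 15 genes listed by name; ATP6V0C, ATP6V1B2, ATP6V1D, ATP6V1F, ATP6V1G1, ATP6V1G2, ATP6V0A1, ATP6V0E1, ATP6V0E2, CTSF, CTSK, CTSO, CTSS, CTSZ, LIPA, SMPD1, GLA, GLB1, FUCA1, MANBA, NEU1, SGSH and CLN3 were added after their values were seen. Of the genes in the related lists the called ones or the smallest p are named, and GALC was added after its values were seen. Plots used matplotlib 3.10.9 in Python 3.11.15. Alternatives changed the scaling, offset, filter, probe set rule, prior variance, replicate block and the arrays used.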

Additional observations from a re-analysis of the deposited data

How the results depend on the processing

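The counts of calls moved with most settings. Genes called were 149 as reported, 63 under quantile normalization, 89 among genes above the lower quartile of brightness, 616 with a prior variance that follows intensity, and 0 to 523 when 1 array was left out. Called members were 1 as reported, 0 under quantile normalization and 0 without probe sets of a shared-sequence suffix, which leave CTSE unmeasured. They were 9 with the prior variance that follows intensity (2 cathepsins, 2 V-ATPase genes, 3 other hydrolases and 2 membrane genes), and 0 to 3 when 1 array was left out. By class the range when 1 array was left out was 0 to 1 for cathepsins, V-ATPase, other hydrolases and membrane genes. Cathepsin calls were 0 under quantile normalization and 0 without shared-suffix probe sets. With a replicate block, 1229 genes and 11 members were called (3 cathepsins, 3 V-ATPase genes, 3 other hydrolases, 2 membrane genes). Same-numbered arrays did not deviate together (correlation 0.01 over all genes and -0.13 over the members), so the numbers were not taken as pairs.

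The median log2 fold change of all members, 0.05 as reported, was 0.026 under median centring, 0.058 above the lower quartile of brightness, 0.032 with the mean of all probe sets, -0.057 without shared-suffix probe sets (48 members left), and 0.011 to 0.065 when 1 array was left out. For cathepsins it was 0.11 above the lower quartile, 0.17 with the mean of all probe sets, and 0.0813 to 0.137 when 1 array was left out. For other hydrolases it was 0.011 with the mean of all probe sets, -0.053 without shared-suffix probe sets, and 0.0019 to 0.0994 when 1 array was left out. For membrane genes it was -0.17 without shared-suffix probe sets and -0.0714 to 0.0829 when 1 array was left out, and for the V-ATPase -0.0958 to -0.0179. The V0 median was 0.21 with the mean of all probe sets, 0.18 without shared-suffix probe sets and 0.22 to 0.41 when 1 array was left out, and the V1 median -0.17 to -0.11. Of 490 values of the 42 named members under alternatives, 20 gained a call, 3 lost one (CTSE) and 12 uncalled values changed sign, in 9 genes.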
